A study of Homo sapiens with 6 samples.

Results

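Ribosome biogenesis factors were followed in human neural stem cells of the established line AF22 after knockdown of BMI1. The BMI1 protein belongs to Polycomb repressive complex 1, which represses genes through chromatin. The knockdown group held 3 libraries in which the labels give BMI1 and its read-through COMMD3-BMI1 as the targets, and the control group held 3 libraries of AF22 cells labelled as wild type with a control short hairpin RNA. All were made from total RNA with a strand-specific kit. The labels name no time point and do not say whether libraries came from separate cultures, so the spread between them may be technical. The members were a fixed list of 52 genes for snoRNP, processome, subunit assembly and RNA polymerase I proteins, matched by gene symbol. All 52 were found among the 26485 symbols of the count tables, and all 52 passed the filter on low counts, as did 12937 genes in all. For description they were put into 8 steps by their textbook role.

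Ribosomes are built in the nucleolus. RNA polymerase I transcribes a long precursor rRNA, box C/D and box H/ACA snoRNPs guide its methylation and pseudouridylation, and the small subunit processome folds and cleaves the part that becomes 18S rRNA. Pre-40S and pre-60S particles are then matured by separate sets of assembly factors and exported. Dividing cells, neural stem cells among them, need a steady supply of new ribosomes, and many of these genes are known targets of MYC, which binds the E-box CACGTG together with MAX.

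The promoters of 4 members are shown because they set a motif match beside the measured change. The sequences are from RefSeq (GRCh38.p14), each on its gene's strand from 250 bases before the annotated start to 50 bases after it, and capitals mark the E-box. NOP14 and MRTO4 were among the members called lower in knockdown (adjusted p under 0.05 with the library number as a block), and each holds 1 E-box just after the start. NOB1 was called lower and holds none in this window. NOP10 holds 2 E-boxes and did not pass the test. NOP14 lies at chr4:2963357-2963656, minus strand, MRTO4 at chr1:19251555-19251854, plus strand, NOB1 at chr16:69754877-69755176, minus strand and NOP10 at chr15:34343087-34343386, minus strand.
NOP14: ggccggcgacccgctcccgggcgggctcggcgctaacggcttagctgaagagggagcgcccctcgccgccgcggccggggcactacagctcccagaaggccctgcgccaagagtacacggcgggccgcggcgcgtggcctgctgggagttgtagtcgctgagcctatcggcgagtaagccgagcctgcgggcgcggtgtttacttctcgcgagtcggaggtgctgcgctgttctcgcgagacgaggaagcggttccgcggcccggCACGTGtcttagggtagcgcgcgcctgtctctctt
MRTO4: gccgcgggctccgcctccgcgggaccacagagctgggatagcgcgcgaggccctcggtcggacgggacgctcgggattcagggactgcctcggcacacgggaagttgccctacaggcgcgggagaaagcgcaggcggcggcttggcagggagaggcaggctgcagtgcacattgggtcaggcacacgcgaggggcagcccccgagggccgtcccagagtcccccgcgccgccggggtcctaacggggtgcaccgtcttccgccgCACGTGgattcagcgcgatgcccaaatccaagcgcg
NOB1: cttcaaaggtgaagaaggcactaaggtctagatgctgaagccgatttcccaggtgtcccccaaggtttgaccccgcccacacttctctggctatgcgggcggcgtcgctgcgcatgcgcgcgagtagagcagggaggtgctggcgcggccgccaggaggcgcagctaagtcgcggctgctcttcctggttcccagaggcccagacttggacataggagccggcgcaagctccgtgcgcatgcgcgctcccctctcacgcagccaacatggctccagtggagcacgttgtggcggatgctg
NOP10: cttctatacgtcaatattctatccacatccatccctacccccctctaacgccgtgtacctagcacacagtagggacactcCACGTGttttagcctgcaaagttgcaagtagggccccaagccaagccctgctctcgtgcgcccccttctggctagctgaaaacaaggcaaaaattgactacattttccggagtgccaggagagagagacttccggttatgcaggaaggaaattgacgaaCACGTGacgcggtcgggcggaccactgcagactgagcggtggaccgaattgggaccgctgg

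Total counts were 4962745 to 9640349 in the knockdown libraries and 5496683 to 6870122 in the control libraries. BMI1 was at 39.9, 21.5 and 26.2 CPM (counts scaled to a common library size with TMM factors) in knockdown libraries 1, 2 and 3, against 85.1, 89.96 and 87.4 CPM in control libraries 1, 2 and 3. The knockdown libraries were all below the control libraries. On the log2 scale BMI1 differed by -1.61 (SE 0.194; edgeR adjusted p 0.163) with no block in the fit, and by -1.64 (SE 0.155; edgeR adjusted p 0.00836) when the library number was a block. COMMD3-BMI1 had 0 counts in all 6 libraries. Same-numbered libraries of the 2 groups deviated together from their group means, so both fits are given, and a pair below means a knockdown and a control library of the same number. Knockdown library 2 stood apart on the first principal component, at 40.2 (49.2% of the variance), with the other 5 libraries between -25.5 and 11.5. Of the 10 neural stem cell markers, 9 were tested and 0 were called in edgeR with the block, and HES5 was at 0 in all libraries. The 4 with the smallest p were PROM1 (log2 fold change -0.38), SOX9 (0.22), PAX6 (-0.36) and SOX1 (-0.40), each at an unadjusted p under 0.05 with overlapping groups (adjusted p 0.0765, 0.089, 0.156 and 0.159). Without the block, 7 of the 9 stem cell markers tested lay below 0 and 2 above. Their median was -0.19 (0.008, -0.46 and -0.06 in pairs 1, 2 and 3). Chosen apart from the rule for named genes, FABP7 was lower in all 3 pairs without overlap (log2 fold change -0.20, adjusted p 0.237 with the block in edgeR). SOX2, also outside that rule, was at 282 to 386 CPM in knockdown and 322 to 384 CPM in control libraries. The neuronal marker RBFOX3 and the oligodendrocyte lineage marker SOX10 were also at 0.

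Most ribosome biogenesis factors had small negative differences in knockdown cells, and few of them passed a test. Without the block, edgeR called 0 of 52 members (adjusted p under 0.05), where 0% of the 12937 genes tested were called (1869 of all genes had an unadjusted p under 0.05). The smallest adjusted p of a member was 0.265, and 3 members (NOP14, BOP1 and RRP1B) were lower at an unadjusted p under 0.05. That was 5.77% of the members, against 7.88% of all genes tested. DESeq2 and limma voom without the block also called 0 members. With the block, edgeR called 5 members lower (NOP14, RRP1B, NOP58, NOB1 and MRTO4), 9.62% of the members against 5.39% of all genes tested, and called 0 members higher, against 4.63% of all genes tested. At an unadjusted p under 0.05 in that fit, 21 members were lower, where 14.6% of all genes tested were, and RRN3 was the 1 member higher, where 14.1% of all genes were.

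The differences were small for nearly every member. Log2 fold changes without the block ran from -0.46 to 0.29, and 34 of the 52 lay within 0.2 of 0. Their median was -0.14, where the median over all genes tested was -0.003. Of the members 42 lay below 0 (80.8%, against 50.4% of all genes tested), and 27 were lower in all 3 pairs (51.9%, against 26.7%). The 5 members higher in all 3 pairs were POLR1A, POLR1C, RRN3, NIP7 and SDAD1, against 25.6% of all genes tested. The knockdown and control libraries did not overlap, with knockdown lower, for 7 members (UTP14A, WDR36, NOP14, RRP12, BOP1, PES1 and RRP1B), 13.5% against 11.2% of all genes tested. SDAD1 was the 1 member of 52 without overlap in the other direction, where 9.28% of all genes tested were.

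The pairs were unlike. On the log2 scale the members' median difference was -0.01, -0.26 and -0.11 in pairs 1, 2 and 3, and 27, 46 and 42 of the 52 members lay below 0. Pair 2 gave the lowest of the 3 differences for 40 members (76.9%, against 41.4% of all genes tested). Without knockdown library 2 the median over the members was -0.05, and 32 of 52 lay below 0. The step medians without that library were -0.18 for box C/D, 0.002 for box H/ACA, 0.04 for scaffold and chaperone, 0.02 for RNA polymerase I, -0.12 for processome, -0.09 for late 40S, -0.04 for 60S and 0.005 for DEAD-box genes. With pair 2 left out of the blocked fit the median of all members was -0.08. In that fit 10 members were called lower (the 5 above with NOP56, DKC1, WDR43, BOP1 and GNL3). Of all 12846 genes tested in it, 1098 were called lower and 1198 higher.

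**Figure D1:**
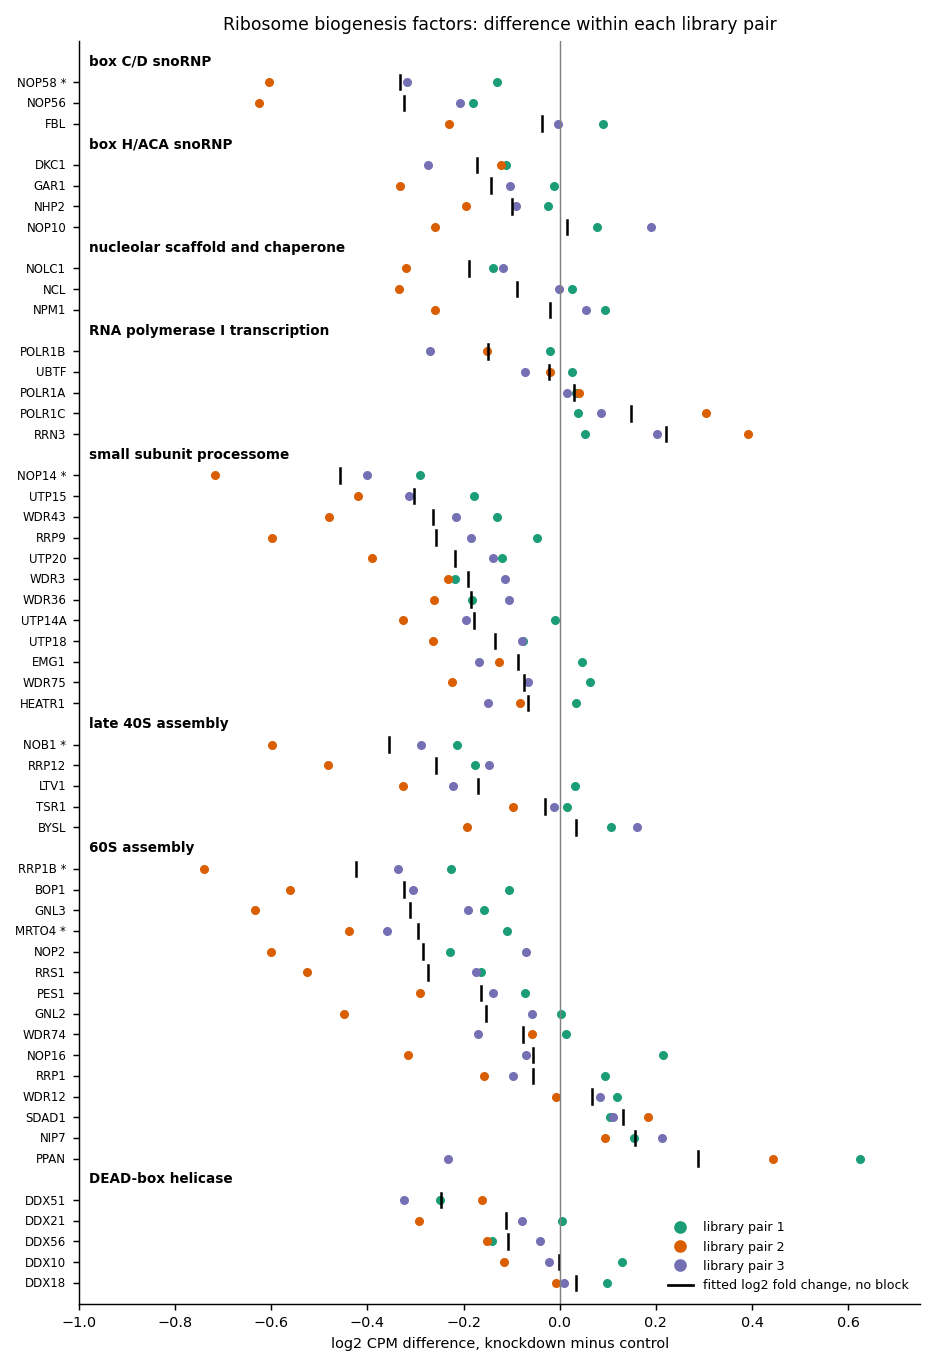
Log2 CPM difference, knockdown minus control, of each of the 52 members within library pairs 1, 2 and 3 (coloured points), grouped by step; black bars are the fitted log2 fold changes without the block, and an asterisk marks the 5 members called with the block. Pair 2 lies furthest to the left for 40 members. The RNA polymerase I genes lie around or above 0, except POLR1B, which is below 0 in all 3 pairs.

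**Figure D2:**
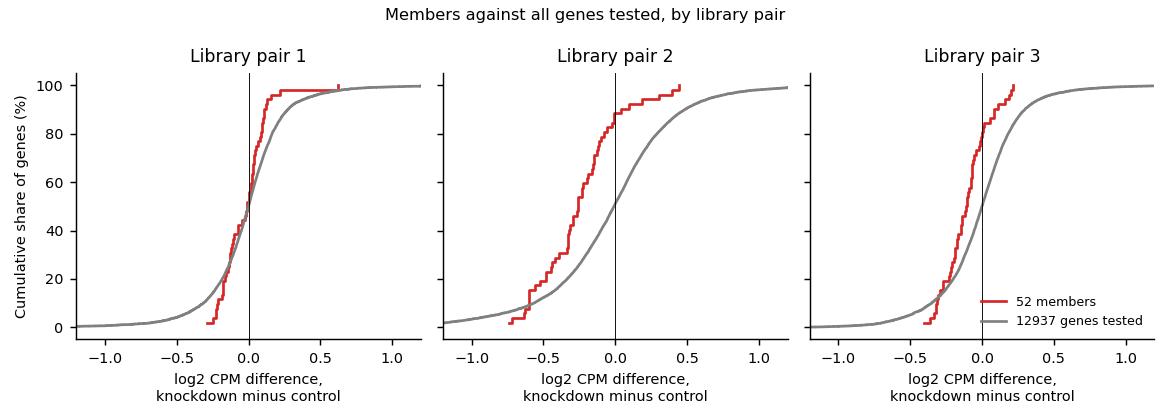
Cumulative share of genes (%) against the log2 CPM difference, knockdown minus control, for the 52 members (red) and the 12937 genes tested (grey), 1 panel per library pair. The members run close to all genes in pair 1 (median -0.01) and to their left in pair 2 (-0.26) and pair 3 (-0.11).

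The RNA polymerase I genes lay around 0. Of these 5 members, edgeR called 0 in either fit (RRN3 had an unadjusted p under 0.05 with the block), and their median was 0.03 (0.03, 0.04 and 0.01 in pairs 1, 2 and 3), or -0.01 after a trend with GC content and length was removed from the blocked fit. RRN3 encodes TIF-IA, which makes the polymerase competent to initiate at rDNA. RRN3 was at 73.6, 84.1 and 88.0 CPM in knockdown libraries 1, 2 and 3, against 70.9, 64.0 and 76.5 CPM in the control libraries. It was higher in all 3 pairs although the groups overlapped, with a log2 fold change of 0.22 (SE 0.0825) and an adjusted p of 0.119 in edgeR with the block. Reads of RRN3 and its near-identical pseudogenes may have been split in counting. POLR1B, the second largest subunit, was the lowest of the step, at 59.97, 43.1 and 47.7 CPM in knockdown and 60.8, 47.9 and 57.6 CPM in control libraries. POLR1B was lower in all 3 pairs, but its log2 fold change of -0.15 did not pass (adjusted p 0.266 with the block). POLR1A, the largest subunit, was at 107 to 110 CPM in knockdown and 106 to 107 CPM in control libraries. POLR1C, shared with RNA polymerase III, and UBTF, the upstream binding factor of rDNA, had log2 fold changes of 0.15 and -0.02.

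Among the snoRNP proteins, edgeR called 1 of 7 lower with the block, where 5.39% of all genes tested were called lower. The box C/D proteins had a median of -0.32 (-0.13, -0.60 and -0.21 in pairs 1, 2 and 3), and 1 of the 3 was called. NOP58, a core protein that binds the guide snoRNA with NOP56, was at 120, 74.7 and 95.4 CPM in knockdown libraries 1, 2 and 3, against 131, 114 and 119 CPM in the control libraries. Knockdown library 1 lay within the control range and the other two below it. NOP58 fell to 78.4% of the control level with the block (log2 fold change -0.35, SE 0.0911, adjusted p 0.0459 in edgeR, and 0.12 in DESeq2 with the block). NOP56, chosen for mention after its values were seen, was just outside the threshold: it was at 152, 101 and 131 CPM in knockdown and 173, 155 and 152 CPM in control libraries, with an adjusted p of 0.0531. FBL, fibrillarin, is the methyltransferase of the same particle. FBL was at 205, 142 and 174 CPM in knockdown and 192, 166 and 174 CPM in control libraries, a log2 fold change of -0.04 with overlapping groups.

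Among the 4 box H/ACA proteins the median was -0.12 (-0.02, -0.23 and -0.10), and edgeR called 0 with the block (DKC1 had an unadjusted p under 0.05). Without knockdown library 2 the median turned to 0.002, with 2 of 4 below 0. DKC1, dyskerin, which is the pseudouridine synthase, was lowest, at 116, 94.3 and 101 CPM in knockdown against 126, 103 and 122 CPM in control libraries (log2 fold change -0.17, adjusted p 0.137 with the block in edgeR). NOP10, a small core protein of the particle, was at 72.6, 54.6 and 73.2 CPM in knockdown and 68.7, 65.4 and 64.2 CPM in control libraries. Its log2 fold change was 0.01, and its sign changed with the scaling. NHP2 and GAR1, the remaining core proteins, had log2 fold changes of -0.10 and -0.14.

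The nucleolar scaffold and chaperone genes, 3 members, had a median of -0.09 (0.02, -0.32 and -0.001 in pairs 1, 2 and 3) and 0 calls in edgeR with the block (NOLC1 had an unadjusted p under 0.05). Without knockdown library 2 the median turned to 0.04, with 1 of 3 below 0. NOLC1 (Nopp140), a chaperone of snoRNPs, was at 207, 152 and 177 CPM in knockdown and 228, 190 and 192 CPM in control libraries (log2 fold change -0.19, adjusted p 0.102 with the block in edgeR). NPM1, nucleophosmin, was at 880, 584 and 770 CPM in knockdown and 825, 700 and 742 CPM in control libraries, with a log2 fold change of -0.02. Nucleolin (NCL) had a log2 fold change of -0.09. NCL and NPM1 together made up 25.8% to 29.02% of the members' counts per library, and named pseudogenes of NPM1 may have taken or given reads.

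In the small subunit processome all 12 members had negative log2 fold changes, from -0.46 to -0.07. The median was -0.19 (-0.10, -0.30 and -0.16 in pairs 1, 2 and 3). Of the 12 members, 9 were lower in all 3 pairs, where 26.7% of all genes tested were. Without knockdown library 2 there were 10 of 12 below 0. NOP14, a component of the particle needed to make 18S rRNA, was the member with the largest difference. It was at 73.2, 48.3 and 62.7 CPM in knockdown libraries 1, 2 and 3, against 89.7, 79.4 and 82.8 CPM in the control libraries. The groups did not overlap. NOP14 fell to 72.2% of the control level with the block (log2 fold change -0.47, SE 0.0921, adjusted p 0.0266 in edgeR and 0.0315 in DESeq2 with the block), and without the block its adjusted p was 0.265. Its antisense gene NOP14-AS1 was at 9.46 to 13.4 CPM in knockdown and 10.7 to 12.3 CPM in control libraries, a log2 fold change of -0.07.

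The other 11 processome genes were not called, and 6 of them had an unadjusted p under 0.05 with the block. HEATR1 (UTP10), of the subcomplex that also acts in rDNA transcription, was nearest to 0, at 116, 107 and 103 CPM in knockdown and 113, 113 and 114 CPM in control libraries (log2 fold change -0.07). Its partners in that subcomplex, UTP15, WDR43 and WDR75, had log2 fold changes of -0.30, -0.26 and -0.07. RRP9, the U3 snoRNP protein, had -0.26, the WD repeat proteins WDR3 and WDR36 had -0.19 each, and UTP14A, UTP18 and UTP20 had -0.18, -0.13 and -0.22. EMG1, the methyltransferase of a modified uridine in 18S rRNA, had -0.09.

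Of the 5 late 40S factors, 1 was called lower with the block, where 5.39% of all genes tested were. Their median was -0.17 (0.02, -0.33 and -0.15). NOB1, the endonuclease that cuts the 3′ end of 18S rRNA, was at 54.0, 35.1 and 47.9 CPM in knockdown libraries 1, 2 and 3, against 62.7, 53.3 and 58.6 CPM in the control libraries. Knockdown library 1 lay within the control range. NOB1 fell to 77.6% with the block (log2 fold change -0.37, SE 0.095, adjusted p 0.0459 in edgeR, and 0.192 in DESeq2 with the block). BYSL (bystin) was highest, at 63.7, 47.4 and 62.1 CPM in knockdown and 59.2, 54.3 and 55.5 CPM in control libraries, a log2 fold change of 0.03. RRP12, an export factor of pre-ribosomes, had -0.26, and the pre-40S factors LTV1 and TSR1 had -0.17 and -0.03.

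The 15 members of 60S assembly were split. Their median was -0.15 (0.00, -0.32 and -0.14 in pairs 1, 2 and 3), and 11 lay below 0. With the block, 2 were called lower, where 5.39% of all genes tested were. RRP1B, a nucleolar paralog of the pre-60S factor RRP1, was at 106, 70.6 and 85.5 CPM in knockdown libraries 1, 2 and 3, against 124, 118 and 108 CPM in the control libraries, with no overlap. It fell to 74.0% with the block (log2 fold change -0.44, SE 0.0983, adjusted p 0.0331 in edgeR and 0.0414 in DESeq2 with the block). RRP1 was at 45.9, 40.3 and 43.2 CPM in knockdown and 43.0, 44.98 and 46.2 CPM in control libraries. The log2 ratio of RRP1B to RRP1 was 1.21, 0.81 and 0.99 in knockdown and 1.53, 1.39 and 1.23 in control libraries, without overlap. The difference of -0.38 had a two-sided exact permutation p of 0.1, the smallest that 3 against 3 libraries allow. That permutation did not keep the library pairs, and this ratio was chosen after its values were seen. No conclusion is drawn from this p.

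MRTO4, which holds the place of the ribosomal stalk protein on pre-60S particles, was at 91.2, 62.4 and 73.2 CPM in knockdown and 98.5, 84.7 and 94.1 CPM in control libraries. Knockdown library 1 lay within the control range. MRTO4 fell to 80.9% with the block (log2 fold change -0.31, SE 0.0813, adjusted p 0.0483 in edgeR, and 0.225 in DESeq2 with the block). BOP1, PES1 and WDR12 form the PeBoW complex of 28S rRNA maturation. BOP1, chosen for mention after its values were seen, was at 75.7, 62.2 and 73.8 CPM in knockdown and 81.4, 91.8 and 91.2 CPM in control libraries, without overlap (log2 fold change -0.33, adjusted p 0.0551 with the block in edgeR), and PES1 and WDR12 had log2 fold changes of -0.16 and 0.07 without the block. The nucleolar GTPases GNL3 (nucleostemin) and GNL2 had -0.31 and -0.15, and NOP2, the rRNA cytosine methyltransferase, had -0.28. RRS1, a factor that loads the 5S RNP, had -0.27, and NOP16 and WDR74 had -0.06 and -0.08.

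The remaining 60S factors lay above 0. SDAD1 was at 84.0, 79.6 and 82.8 CPM in knockdown and 78.1, 70.0 and 76.6 CPM in control libraries, and NIP7 had a log2 fold change of 0.16. Neither passed the test with the block (adjusted p 0.236 and 0.224 in edgeR). SDAD1 shares exons with NAAA on the same strand, and both SDAD1 and NIP7 have named pseudogenes, so their reads may have been split. PPAN had the highest log2 fold change of all members, 0.29, but rested on 9, 21 and 16 counts in knockdown and 6, 13 and 14 counts in control libraries, with an SE of 0.366. Most reads of the locus were listed under the read-through PPAN-P2RY11, which shares its exons and strand. That symbol had 162, 244 and 353 counts in knockdown and 230, 254 and 294 counts in control libraries, a log2 fold change of -0.26 (adjusted p 0.0941 with the block), so that the value for PPAN alone does not give the direction of the locus.

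The 5 DEAD-box helicases, which remodel pre-rRNA with ATP, had a median of -0.11 (0.004, -0.15 and -0.04 in pairs 1, 2 and 3) and 0 calls in edgeR with the block (DDX51 had an unadjusted p under 0.05). Without knockdown library 2 the median turned to 0.005, with 2 of 5 below 0. DDX51, which acts in 28S rRNA maturation, was lowest, at 18.2, 20.5 and 22.3 CPM in knockdown against 21.7, 23.0 and 27.99 CPM in control libraries (log2 fold change -0.25, adjusted p 0.168 with the block in edgeR). It was lower in all 3 pairs, and the groups overlapped. DDX18, of pre-60S particles, was at 158, 140 and 147 CPM in knockdown and 148, 141 and 146 CPM in control libraries, a log2 fold change of 0.03. DDX21, DDX56 and DDX10 had -0.11, -0.11 and -0.002.

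**Figure D3:**
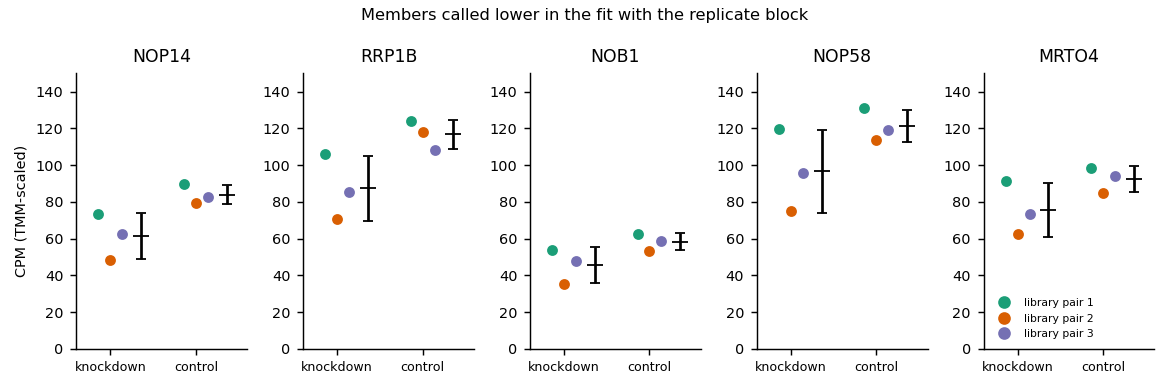
CPM in each library of the 5 members called lower with the block; knockdown is left of control in each panel, colours give the library pair, and black marks are the mean ± SD of 3 libraries. In each panel the knockdown library of a pair lies below its control library, with the widest gap in pair 2 (NOP14 at 48.3 against 79.4 CPM).

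Summed over a step, the level in knockdown library 2 was the lowest of the 6 libraries in 7 of the 8 steps. The members together held 5971, 4515 and 5364 CPM in knockdown libraries 1, 2 and 3, against 6044, 5464 and 5648 CPM in the control libraries. That is 0.582%, 0.457% and 0.531% of counts in the knockdown libraries and 0.598%, 0.553% and 0.570% in the control libraries. As a share of the control mean, the processome was at 97.0%, 76.4% and 89.0% in the knockdown libraries, against 96.1% to 104% in the control libraries. The 60S factors were at 98.2%, 75.9% and 91.5% in the knockdown libraries, against 97.5% to 102% in the control libraries. The RNA polymerase I genes stood at 104%, 103% and 99.8% in the knockdown libraries, against 97.7% to 102% in the control libraries. In bulk libraries, fewer cells of a type and less RNA per cell cannot be told apart.

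Genes of cell division differed more than the members. All 24 genes of a G2/M list were called lower with the block, and their summed level was 3921, 1862 and 2871 CPM in knockdown against 4706, 4018 and 4200 CPM in control libraries. MKI67, a marker of cycling cells, was at 291, 145 and 208 CPM in knockdown and 423, 384 and 341 CPM in control libraries (log2 fold change -0.88, adjusted p 0.0222 with the block in edgeR). Of 26 genes of G1/S and S phase, 21 were called lower. The medians of these lists without the block were -0.60 and -0.52, against -0.14 for the members.

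Some marker genes of other cells and 1 of 2 signs of RNA quality also differed. All 7 fibroblast and mesenchyme markers had positive log2 fold changes, with 2 (COL3A1 and POSTN) called higher, and summed to 1873 to 2538 CPM in knockdown and 1487 to 1814 CPM in control libraries. Of 4 endothelial markers CDH5 was called higher, and the list summed to 125 to 239 CPM in knockdown and 114 to 214 CPM in control libraries, with VWF at most 0.68 CPM. The neuronal list summed to 702 to 797 CPM in knockdown and 674 to 748 CPM in control libraries. Its genes went in both directions. ELAVL3 was called lower (log2 fold change -0.96 with the block). SYT1 (0.29) and MAP2 (0.15) were higher in all 3 pairs, with unadjusted p under 0.05 in edgeR with the block, but were not called. Of the 5 neuronal genes tested, 2 lay below 0 without the block. In the astrocyte, oligodendrocyte lineage and pluripotent cell lists edgeR called 0 genes with the block, and 1, 2 and 2 genes had an unadjusted p under 0.05. MALAT1, a nuclear RNA used here as a sign of RNA quality, was at 360, 507 and 364 CPM in knockdown and 294, 294 and 321 CPM in control libraries (log2 fold change 0.42, adjusted p 0.0446 with the block in edgeR). NEAT1, the other nuclear RNA of that list, was at 11.8, 27.2 and 17.4 CPM in knockdown and 11.03, 23.2 and 18.9 CPM in control libraries, with overlap (log2 fold change 0.07, adjusted p 0.759). The part of cell division, of these markers and of RNA quality in the members' values was not tested.

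**Figure D4:**
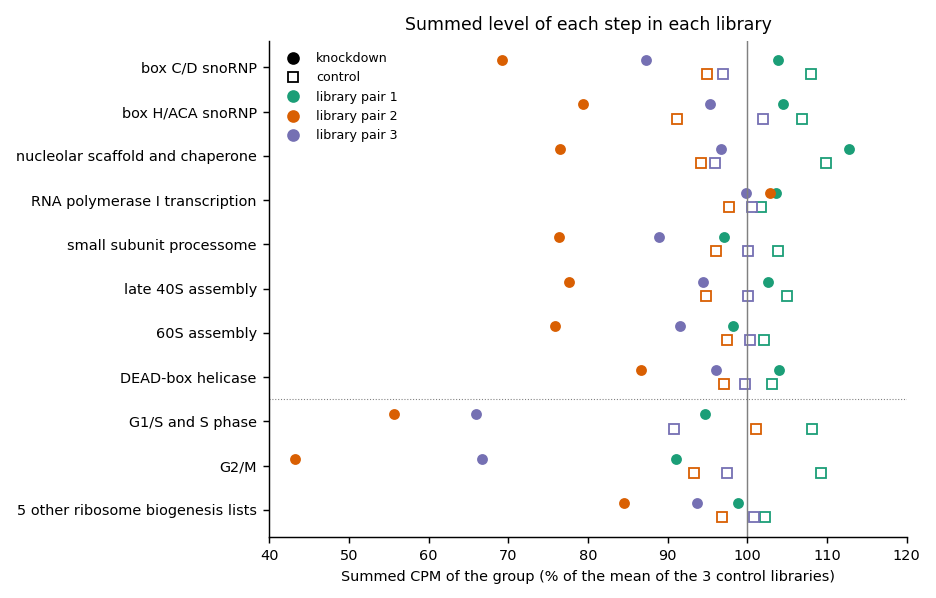
Summed CPM of each step, as a percent of the mean of the 3 control libraries, in knockdown (filled circles, upper row) and control libraries (open squares, lower row), with colours for library pairs; the 3 lowest groups are other gene lists. Knockdown library 2 is lowest in 7 of the 8 steps, at 69.1% for box C/D proteins, and at 43.2% for the G2/M genes.

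Ribosome biogenesis genes outside the 52 were also mostly below 0. Over 5 other lists (132 genes, all tested), 12 were called lower with the block (9.09%, against 5.39% of all genes tested). None was called higher, where 4.63% of all genes tested were. The median without the block was -0.11, and 104 lay below 0, where 50.4% of all genes tested did. EBNA1BP2, a pre-60S factor, differed most. It was at 41.4, 23.4 and 33.5 CPM in knockdown libraries 1, 2 and 3, against 73.7, 64.6 and 70.3 CPM in the control libraries, with no overlap (log2 fold change -1.12, SE 0.117, adjusted p 0.00856 with the block in edgeR). It overlaps CFAP57 on the opposite strand, and the strand setting of the counting is not given.

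Among 48 other large subunit genes, the remaining genes called lower were PELP1 (log2 fold change -0.39), RSL24D1 (-0.39), NOL8 (-0.29) and MAK16 (-0.41, named although outside the rule), and the median of the list was -0.16. Of 44 other small subunit genes, NOM1 (-0.45), NOP9 (-0.34) and NAT10 (-0.37), which acetylates 18S rRNA, were called, with a list median of -0.08. These calls were 6.82% of that list, near the 5.39% of all genes tested, and calls were 10.4% of the large subunit list. In the exosome list of 17, which trims pre-rRNA, EXOSC2 (-0.48), EXOSC9 (-0.43) and EXOSC8 (-0.37) were called (17.6% of the list). EXOSC9 overlaps CCNA2, a gene of the G2/M list that was also called lower, on the opposite strand. Among 11 other RNA polymerase I genes, CD3EAP, a subunit of the polymerase, was called lower, at 19.9, 13.7 and 16.9 CPM in knockdown against 25.4, 28.3 and 27.3 CPM in control libraries (-0.71, adjusted p 0.0268 with the block in edgeR). CD3EAP overlaps ERCC1 on the opposite strand. The median of that list was -0.07 without the block, with 7 of 11 below 0. With the block, 3 of its genes (POLR1E, CD3EAP and TCOF1) were lower at an unadjusted p under 0.05 in edgeR. In the snoRNP assembly list of 12, edgeR called 0 with the block (3 had an unadjusted p under 0.05), and RUVBL1, an ATPase of the assembly machinery, was nearest with -0.29 (adjusted p 0.071).

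The host genes of snoRNAs did not move together. Of 15, GAS5 was called higher, at 152, 164 and 157 CPM in knockdown against 129, 123 and 136 CPM in control libraries (log2 fold change 0.29, adjusted p 0.0393 with the block in edgeR). SNHG1 was called lower, at 45.3, 46.8 and 49.97 CPM in knockdown against 62.3, 60.1 and 61.6 CPM in control libraries (-0.37, adjusted p 0.03). Of the members, 8 host 27 annotated snoRNA genes, and 22 of those symbols were in the tables with at most 7 counts in a library, so that snoRNA levels could not be read.

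In a MYC network list of 12, 3 genes for partners of MAX that repress E-box genes were called, and not in 1 direction. MXD3 was called lower (log2 fold change -0.87) and MXD4 (0.42) and MNT (0.33) were called higher, with adjusted p of 0.0256, 0.0327 and 0.0398 in edgeR with the block. MXD3 overlaps RAB24 on the same strand and PRELID1 on the opposite strand, so its reads may have been split. MXD4 was at 167, 264 and 204 CPM in knockdown and 143, 162 and 164 CPM in control libraries, without overlap. MXI1 of the same list was also higher in all 3 pairs without overlap, but was not called (0.35, adjusted p 0.0654 in edgeR with the block). Of the 12 genes, 4 lay above 0 and 8 below 0 without the block. MYC was at 24.6, 16.8 and 35.2 CPM in knockdown and 30.5, 31.2 and 33.0 CPM in control libraries, with overlap, and its log2 fold change of -0.33 did not pass (adjusted p 0.234). MYCN had -0.13 (adjusted p 0.262).

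The members were well expressed genes. Per kilobase of transcript, their median control level was 26.1 CPM, against 12.7 for all genes tested, and 41 of 52 lay above that median. NPM1 was highest per kilobase (424 CPM in knockdown and 430 in control libraries), followed by NCL (177 and 189) and FBL (149 and 153). PPAN was lowest (1.28 and 1.03) and DDX51 next (4.31 and 5.14). The median SD of log2 CPM over the members was 0.219 in knockdown and 0.0991 in control libraries, against 0.185 and 0.122 over all genes tested. Their transcripts had a median GC content of 48.2%, as did those of all genes tested, but were shorter (median 2888.5 bases, against 3496.5).

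The E-box was frequent in the promoters of the members. CACGTG, which reads the same on both strands, was searched in the 45 promoters at hand, and 15 held it (33.3%), against 10.02% of the 9741 promoters of genes tested and 7.43% of all 27305. Of the 17 matches, 13 lay within 50 bases of the start. Among the other ribosome biogenesis genes, 33 of 113 promoters held it (29.2%). The members with the E-box had a median log2 fold change of -0.17 (12 of 15 below 0) and those without it -0.08 (24 of 30 below 0). Over all genes tested these medians were -0.02 and 0.002. The 7 members without a promoter sequence are in neither group, and RRP1B (-0.42) and NOP58 (-0.33), both called lower, are among them. The rest are BOP1 (-0.32), RRS1 (-0.27), RRP12 (-0.26), NOLC1 (-0.19) and DDX18 (0.03). Whether the E-box goes with the change over all members can therefore not be read. The ETS-type motif CCGGAAGT, on either strand, was in 9 of 45 member promoters (20%), against 9.10% of promoters of genes tested and 4.44% of all. The E2F-type motif TTTGGCGC, on either strand, was in 0 of 45, against 1.15% and 0.659%. None of the 3 motifs contains another.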

How the data were processed

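Libraries were made from total RNA of AF22 cells, per the labels' protocols. The authors deposited 1 table of whole-number read counts per library, 26485 gene symbols each. Trim Galore 0.6.6, STAR 2.7.10a, bedtools and hg38 are named in the submitters' processing notes, and how reads were assigned to genes, with which annotation and on which strand, is not given in the sources used here. Among the members, 8 share exons with a same-strand gene and 21 with an opposite-strand gene, and 12 have a named pseudogene (GENCODE 29, GRCh38), so their reads could have been split. The members and lists were chosen with earlier results of these data known.

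Counts were tested with edgeR 4.0.16 in R 4.3.3 (filterByExpr, TMM, glmQLFit and glmQLFTest, Benjamini-Hochberg over 12937 genes), and a gene is called at an adjusted p under 0.05. The SE is the log2 fold change divided by the square root of F. Log2 CPM used a prior count of 2. The main design has group as its only term. The labels number both groups 1 to 3, and deviations from the group means of same-numbered libraries correlated at 0.563, 0.467 and 0.535 across genes, all above 0.1, and libraries were therefore treated as paired by number. This pairing comes from the data. With all 6 libraries, edgeR called members only in fits with the number as a block. Depth of 4962745 to 9640349 counts limits precision, and the lowest member other than PPAN had 88 counts. Alternatives were other scalings and filters, DESeq2 1.42.0, limma voom 3.58.1, thinning, a GC and length trend, and leaving out libraries. Named genes are BMI1, called members, the lowest and highest member of each step, and up to 4 genes per other list with the smallest p with the block. Promoters were found in RefSeq for 45 of 52 members.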

Additional observations from a re-analysis of the deposited data

How the results depend on the processing

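Without the block, edgeR called 0 genes, as it did with RLE size factors, with total count scaling and with at least 1 CPM in 3 libraries, and limma voom called 0. No filter on low counts gave 2, and DESeq2 126, 0 of them members. Leaving out 1 library gave 0 to 665 genes and 0 to 2 members, and the 665 (with NOP14 and RRP1B) came without knockdown library 1. With the replicate block, edgeR called 1296 genes in either direction, and 5 members, all of them lower. The same counts were 590 and 2 with DESeq2, 1335 and 5 with RLE size factors, 1283 and 7 with total count scaling, 1041 and 3 after thinning to the smallest total, and 1626 and 6 after removing a GC and length trend. Leaving out pairs 1, 2 and 3 gave 1320, 2296 and 912 genes and 7, 10 and 3 members. In these 9 blocked fits NOP14 and RRP1B were always called and 0 members were called higher. Of all calls with the block, 599 were higher and 697 lower, against 494 and 789 with total count scaling and 862 and 764 after removing the GC and length trend. Higher and lower calls were 240 and 350 with DESeq2, 651 and 684 with RLE size factors and 487 and 554 after thinning. They were 591 and 729, 1198 and 1098, and 379 and 533 without pairs 1, 2 and 3.

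The median of the members stayed negative under all 21 alternatives, from -0.22 to -0.05 with 1 library left out and -0.18 to -0.08 with a pair left out of the blocked fit. BMI1 stayed below -1.4 throughout. It passed with the block at -1.64, and in blocked fits at -1.63 (DESeq2 and RLE size factors), -1.65 (total count scaling), -1.55 (thinned), -1.61 (GC and length) and -1.89, -1.46 and -1.58 (without pairs 1, 2 and 3). It also passed without a filter (-1.61) and in DESeq2 (-1.59), and values with 1 library left out ran from -1.87 to -1.44. Members near 0 changed sign. NOP10 was at -0.0036 with total counts and, in blocked fits, at -0.0097 with total counts, -0.013 after thinning, and -0.022 and -0.093 without pairs 1 and 3. In blocked fits FBL was at 0.037 and NPM1 at 0.071 without pair 2, and at 0.0032 and 0.012 after the GC and length trend. There, BYSL was at -0.0041 and -0.046 without pairs 1 and 3, and PPAN at -0.053 after thinning. With 1 library left out, the ranges were -0.17 to 0.088 for FBL, -0.062 to 0.14 for NOP10, -0.15 to 0.13 for NPM1, -0.031 to 0.16 for BYSL and -0.0101 to 0.074 for DDX18. The cause was not tested.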
